A study of Homo sapiens with 18 samples.

Results

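Kelly is an established human neuroblastoma cell line with amplified MYCN. In the comparison described here, Kelly cells transduced with the second of 2 hairpins against AHR, called shAhR-2, were set against Kelly cells transduced with the empty lentiviral vector pLKO. The libraries were chosen by their labels, 3 of shAhR-2 and 3 of pLKO, which made 6 of the 18 libraries of the series. The other 12 libraries were Kelly cells with the first hairpin (shAhR-1) and BE2C cells, a second neuroblastoma line with amplified MYCN, with pLKO, shAhR-1 or shAhR-2, in 3 libraries each. The labels name the vector for every library and give no time after transduction, no selection and no ligand. They speak of triplicates, each of 50K cells, and do not say that these came from separate transductions, so the p-values below speak of the spread among 3 libraries a group and no more. AHR expression was not measured by this assay, so the extent of the knockdown is not part of these data.

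ATAC-seq uses a transposase that inserts sequencing adapters into DNA not wrapped in nucleosomes, so that fragments pile up at active promoters, enhancers and insulator sites, and a caller marks each pile as a peak. AHR encodes the aryl hydrocarbon receptor, a bHLH-PAS transcription factor that waits in the cytoplasm bound to chaperones, moves to the nucleus when a ligand binds and contacts DNA together with its partner ARNT. It is best known for switching on enzymes that handle foreign aromatic compounds, and it also acts in cell differentiation. Neuroblastoma arises from precursors of the sympathetic nervous system, and its cell identity is set largely by distal enhancers, which open and close more readily than promoters.

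The shAhR-2 libraries gave many more peaks than the pLKO libraries. On chromosomes 1 to 22 and X the pLKO lists held 34848, 19984 and 30053 peaks in replicates 1, 2 and 3, and the shAhR-2 lists held 64808, 60457 and 65740. The groups did not overlap (63668 ± 2820 against 28295 ± 7586 peaks, mean ± SD, n = 3 each), a difference of 1.21 on the log2 scale (two-sided exact permutation test p = 0.1, adjusted p = 0.1 over 5 tests, the smallest p that 3 against 3 allows). The genome-wide background, the number of overlapping reads at a typical position as solved from the peaks' fold and p-value, was 1.77, 1.92 and 1.26 reads in pLKO and 2.91, 2.88 and 2.56 in shAhR-2. It stands in for sequencing depth, for which no other measure was used here. Background and list length thus moved with the hairpin, and their part in the results below was not tested. Replicate 2 of pLKO stood apart within its group, with the shortest list, the narrowest peaks and a median fold over its full list of 5.25 against 6.49 and 6.91 in pLKO replicates 1 and 3.

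**Figure D1:**
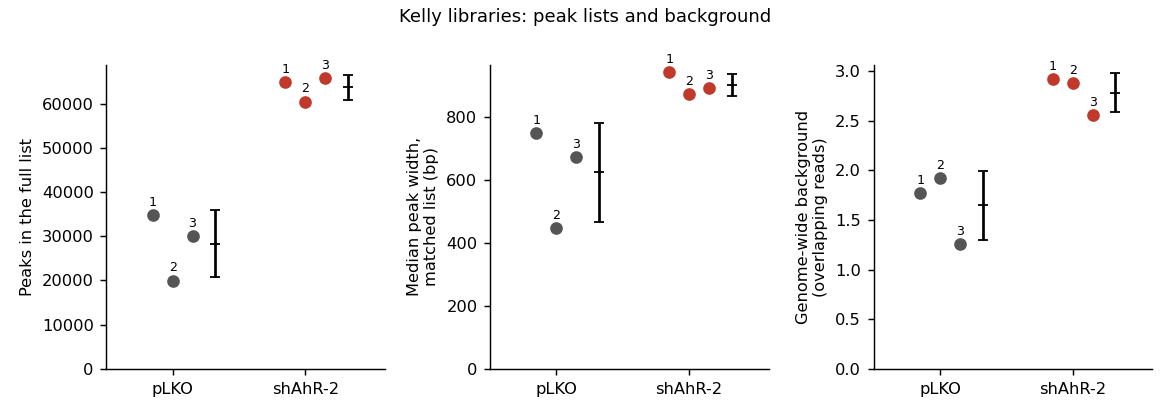
Peaks in the full list, median peak width in base pairs after all lists were shortened to the same length, and genome-wide background in overlapping reads for each Kelly library, with points numbered by replicate and bars giving mean ± SD of 3. All 3 shAhR-2 libraries lie above all 3 pLKO libraries in each panel, and pLKO replicate 2 has the shortest list (19984 peaks) and the narrowest peaks (448 bp).

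To compare where the peaks lay, all 6 lists were brought to the length of the list of pLKO replicate 2, keeping the 19984 peaks with the highest −log10 p in each. This kept 57.3%, 100% and 66.5% of the pLKO lists and 30.8%, 33.1% and 30.4% of the shAhR-2 lists. The weakest peak kept therefore had a −log10 p of 13.0, 3.79 and 10.2 in pLKO and of 21.4, 17.1 and 20.1 in shAhR-2, so a shAhR-2 peak needed more evidence to stay. Overlapping peaks were merged into 30780 regions. A peak in every one of the 6 libraries was found at 12352 of them (40.1%).

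Of the 30780 regions, 1377 had a peak in 3 of 3 shAhR-2 and in 0 of 3 pLKO libraries (4.47%), and 1159 had a peak in 3 of 3 pLKO and in 0 of 3 shAhR-2 libraries (3.77%). They are called gained and lost, as names for these patterns of presence. No region was tested on its own, since the lists carry presence and peak values but no read counts at regions without a peak. The counts, and which was larger, rested in part on pLKO replicate 2. Leaving out any library loosens the rule, so counts tend to rise. Without pLKO replicate 1 they were 1808 gained and 1434 lost, and without replicate 3 they were 1718 and 1414. Without replicate 2 they were 2928 and 3093, and 1576 and 2032 with the lists kept at 19984 peaks. Of the single libraries left out, only pLKO replicate 2 made lost regions outnumber gained ones. Many regions belonged to single libraries: 4466 had a peak in 1 pLKO library and no shAhR-2 library, of which 2654 were in pLKO replicate 2 alone. In shAhR-2, 2557 regions were seen in a single library of that group and in no pLKO library. Pairs of shAhR-2 libraries shared a Jaccard index of covered bases between 0.690 and 0.728. Pairs of pLKO libraries lay between 0.510 and 0.691, and mixed pairs between 0.402 and 0.593. The mixed pairs with pLKO replicates 1 and 3 lay between 0.536 and 0.593, and so overlapped the range of the pLKO pairs.

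**Figure D2:**
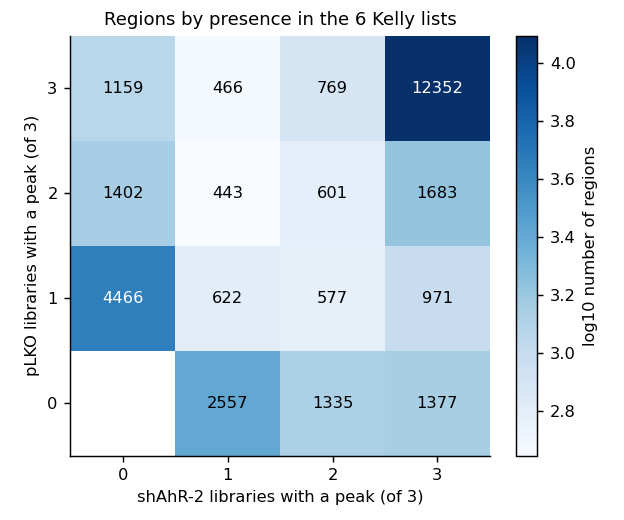
Number of regions by how many of 3 shAhR-2 libraries (horizontal axis) and how many of 3 pLKO libraries (vertical axis) had a peak there, with the colour giving log10 of the number. The corner of 12352 regions in all 6 libraries is the fullest, and the gained (1377) and lost (1159) corners are of similar size.

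The gained and lost regions differed in what the weaker, unshortened parts of the lists held. At 571 of the gained regions (41.5%, or 1.86% of all regions) no pLKO library had a peak of any strength. At 428 and 378 more, 1 and 2 pLKO libraries had a weaker peak. The list of pLKO replicate 2 was used whole, so it could hold no such peak. Of the lost regions, 126 (10.9%, or 0.409% of all regions) had no peak of any strength in shAhR-2, while 786 (67.8%) had a weaker peak in all 3 shAhR-2 libraries. Most lost regions were thus sites with a called peak in both groups that ranked lower in shAhR-2. With full lists the lack of a peak is judged against longer lists in shAhR-2 than in pLKO. Over all regions, the share with a peak went from 64.7% to 82.0% in pLKO replicate 1 when full lists were used. In pLKO replicate 3 it went from 64.4% to 77.4%. In shAhR-2 it went from 64.8%, 64.8% and 64.7% to 91.2%, 88.5% and 91.0%. The direction of the contrast between the groups was thus also seen over all regions.

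Gained regions held peaks somewhat narrower than was typical of the shAhR-2 libraries. Their median peak width was 770, 736 and 711 bp in shAhR-2 replicates 1, 2 and 3, below the medians of 942, 873 and 891 bp over all peaks kept in those libraries. Their median fold over local background, the authors' own value for each peak, was 8.08, 7.48 and 8.47, and the solved pileup at the summit was 47, 42 and 42 overlapping reads. By strength they stood at a median of 75.3%, 67.2% and 73.4% of the way down the shortened lists, so they came largely from the weaker end. The 3 summits of a gained region lay within a median of 55 bp of each other, and within 100 bp at 76.7% of them. Where pLKO replicates 1 and 3 had a weaker peak, it was narrower, with a median width of 384 and 317 bp, and had a median fold of 5.08 and 4.87. By the rule such a peak had to fall below the −log10 p cut of its library. The rule thus favours lower values, and these are a description.

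Lost regions likewise held peaks narrower than was typical of the pLKO libraries. Their median width was 603, 317 and 542 bp in pLKO replicates 1, 2 and 3, against 750, 448 and 674 bp over all peaks kept. The median fold was 7.78, 4.71 and 7.58, and the solved pileup was 35, 18 and 26 reads. Replicate 2 was the lowest of the 3 in each measure. By strength the lost regions stood at a median of 65.7%, 65.0% and 64.8% of the way down the shortened pLKO lists. Like the gained regions, they came largely from the weaker end. The summits of a lost region were spread over a median of 80 bp, and lay within 100 bp of each other at 60.8% of regions. At regions with peaks in all 6 libraries the same spread was 74 bp in pLKO and 61 bp in shAhR-2. In the full shAhR-2 lists the weaker peaks at lost regions had a median fold of 4.74, 4.42 and 4.84 and a width of 561, 494 and 519 bp. At the 783 lost regions with a solved pileup in all 6 libraries, the median pileup was 36, 18 and 26 reads in pLKO and 28, 23 and 26 in shAhR-2, so the groups overlapped. Divided by the library's genome-wide background it was 20.3, 9.38 and 20.7 in pLKO and 9.61, 8.0 and 10.2 in shAhR-2. On this scale pLKO replicate 2 lay among the shAhR-2 libraries. These regions were chosen for ranking lower in shAhR-2, so neither set of values is a test of a difference.

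Peaks were wider in shAhR-2 also where both groups had them. Over the shortened lists the median width was 902 ± 35.8 bp in shAhR-2 and 624 ± 157 bp in pLKO (mean ± SD, n = 3 each), a difference of 278 bp with no overlap between the groups (two-sided exact permutation test p = 0.1, adjusted p = 0.1). Over the full lists the medians were 509, 506 and 468 bp in shAhR-2 and 548, 448 and 523 bp in pLKO, a difference of −12 bp the other way (exact permutation test p = 0.8), so the direction depended on the length of the lists. Within the 12352 regions present in all 6 libraries, median widths were 869, 585 and 804 bp in pLKO and 1046, 983 and 1007 bp in shAhR-2. At 6885 of them (55.7%) every shAhR-2 peak was wider than every pLKO peak, and at 22 (0.178%) every one was narrower. Without pLKO replicate 2 these counts were 7014 and 133. The shortened shAhR-2 lists covered 19.6, 18.4 and 18.7 Mb and the pLKO lists 15.8, 10.3 and 14.4 Mb. Median fold at the shared regions did not separate the groups. It was 10.1, 6.20 and 10.0 in pLKO and 8.83, 8.27 and 9.45 in shAhR-2, with pLKO replicate 2 the lowest and the other 2 pLKO libraries the highest. Background was higher in every shAhR-2 library, and its part in the wider peaks cannot be told apart from that of the hairpin.

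Single regions show the pattern. Gained and lost regions were put in order of the smallest of their 3 fold values, and the first 10 of each are plotted. Coordinates are on hg19, and the genes around them were not analysed here. The first gained region was chr4:9382635-9383232, with a fold of 11.8, 11.4 and 11.5 in shAhR-2 and a weaker peak of 5.05 in pLKO replicate 1 alone. The second, chr4:174568730-174569644, had 11.4, 11.1 and 13.6 in shAhR-2 and 6.13 in pLKO replicate 1. The third, chr19:52074196-52074786, had 11.9, 11.0 and 13.1 in shAhR-2 and 5.77 in pLKO replicate 1. The rule and the order by lowest fold together favour such a gap between the groups, so its size is a description.

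Among the other gained regions of the first 10, a pair lay far from any region shared by all libraries. At chr11:87618956-87619717, 451 kb from the nearest such region, the fold was 10.9, 11.0 and 11.6 in shAhR-2 and 3.97 and 4.87 in pLKO replicates 1 and 3. At chr12:91230199-91231243 the distance was 545 kb, and the fold was 10.7, 11.6 and 11.9 in shAhR-2 and 5.41 in pLKO replicate 1. At chr5:10284042-10284688, which lay 23.3 kb from a shared region, the fold was 12.6, 11.1 and 10.9 in shAhR-2 and 6.49 in pLKO replicate 1. That region also had a peak in 3 BE2C shAhR-2 libraries and in 1 BE2C pLKO library. In BE2C, 2 of the first 10 gained regions had a peak in more shAhR-2 than pLKO libraries. At the other 8 the numbers were equal, and they were 0 in both groups at chr11:87618956-87619717 and chr6:74550247-74551235. The remaining 4 of the first 10 were chrX:129535407-129536373, chr7:110082235-110082936, chr6:74550247-74551235 and chr6:7141029-7141861. The first 10 were between 591 and 1045 bp wide, and 6 of them had no peak in any Kelly shAhR-1 library.

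The first lost region was chrX:10711788-10712597, where the fold was 12.4, 9.94 and 12.9 in pLKO and 4.73, 4.61 and 5.99 in shAhR-2. At chr10:44811889-44812447 it was 11.2, 9.0 and 13.5 in pLKO and 7.05, 5.14 and 5.06 in shAhR-2. At chr3:43218181-43218660 it was 12.2, 8.99 and 10.8 in pLKO, and a single shAhR-2 library, replicate 1, had a peak, of 3.58. In all 3 the lowest pLKO fold was above the highest shAhR-2 fold, which the order by lowest fold favours. At chr3:21836358-21836992 the fold was 14.5, 8.91 and 12.4 in pLKO and 6.18, 5.67 and 5.97 in shAhR-2. At chr10:105437754-105438443 it was 15.5, 8.83 and 12.1 in pLKO and 5.30, 3.90 and 6.27 in shAhR-2. Among the other 5 were chr4:86412654-86413243, chr4:100457316-100457912, chr5:148439835-148440464 and chr2:118027081-118027516. The last of these lay 545 kb from the nearest region shared by all libraries, and the first lost region lay 417 kb away. Such distances were therefore not particular to the first gained regions. Of the first 10 lost regions, 8 kept a weaker peak in all 3 shAhR-2 libraries and 8 had a peak in at least 2 Kelly shAhR-1 libraries. They were between 436 and 810 bp wide. In BE2C, 1 of these 10 lost regions had a peak in fewer shAhR-2 than pLKO libraries and 1 in more. At the other 8 the numbers were equal, and they were 0 in both groups at chr3:21836358-21836992.

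**Figure D3:**
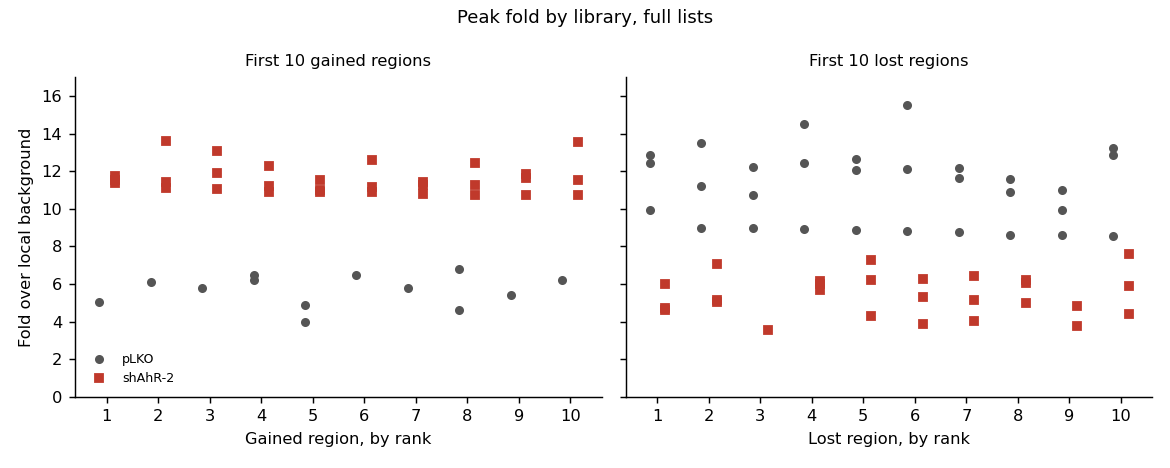
Fold over local background at the summit, the authors' value, for each Kelly library with a peak in its full list at the first 10 gained (left) and first 10 lost (right) regions, ordered by rank; a library without a peak has no point. At gained regions the pLKO points lie at 6.79 or below and the shAhR-2 points at 10.7 or above, while at lost regions most shAhR-2 points are present at lower fold.

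Some regions had no peak of any strength in the other group. These were chosen after their values were seen, by the same order. Presence in the other libraries is given for lists of at most 19984 peaks, so weaker peaks there are not counted. With full lists, gained regions of this kind had a peak at 39.4%, 42.7% and 54.5% in BE2C pLKO. In BE2C shAhR-2 the full lists gave 82.1%, 81.3% and 84.6%. Over all regions the full lists gave 67.8% to 76.4% in BE2C pLKO and 87.7% to 88.5% in BE2C shAhR-2. At lost regions of this kind they gave 54.8%, 61.9% and 68.3% in BE2C pLKO. In BE2C shAhR-2 the shares at those lost regions were 73.0%, 71.4% and 69.8%, so presence was higher with the longer lists there too. The first gained region of this kind was chr10:85229460-85230088, with a fold of 10.8, 10.6 and 12.4 in shAhR-2 and no peak in any Kelly shAhR-1, BE2C pLKO or BE2C shAhR-2 library. The second, chr1:147553442-147553938, had 10.6, 10.6 and 12.2, and a peak in 3 shAhR-2 and 2 pLKO libraries of BE2C. At chr4:109176052-109176950 the fold was 11.7, 10.5 and 11.5, and in BE2C 3 shAhR-2 and 0 pLKO libraries had a peak. At chr13:70139046-70139961 it was 11.1, 10.5 and 11.2, and in BE2C 2 shAhR-2 and 0 pLKO libraries had a peak. The fifth, chr8:124772898-124773566, had 10.3, 10.3 and 10.9, and in BE2C 3 shAhR-2 and 3 pLKO libraries had a peak. The first lost region of this kind was chr3:30679948-30680732, with 10.9, 7.54 and 10.7 in pLKO. In BE2C it had a peak in all 3 libraries of both pLKO and shAhR-2, so the Kelly pattern was not seen there. At chr6:5529670-5530253 the fold in pLKO was 11.2, 7.25 and 9.64, and at chr7:129190429-129191065 it was 12.0, 6.72 and 10.1.

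Gained regions lay in more thinly populated stretches of the genome than lost regions did. The median distance from a gained region to the nearest region shared by all 6 libraries was 92.8 kb, against 59.9 kb for lost regions and 59.1 kb over all 30780 regions. Of the gained regions 47.5% were over 100 kb away, against 36.8% of the lost and 34.7% of all. Within 10 kb lay 5.81% of the gained, 12.3% of the lost and 10.8% of all. Regions that were neither gained, lost nor in all 6 had a median of 65.5 kb. The order of gained above lost held when lists were ranked by fold, at 110 kb against 74.7 kb, and without pLKO replicate 2 at the same list length, at 74.6 kb against 58.1 kb, both tried after the data were seen. Another region with the same call lay within 50 kb of 179 gained regions (13.0%) and of 198 lost regions (17.1%).

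The chromosomes also differed in their shares. Gained regions made up 6.95% of the regions on chromosome 13, 6.08% on chromosome 7, 6.07% on chromosome 4 and 6.06% on chromosome 6, against 4.47% on all chromosomes together. Chromosomes 4 and 13 are known for long gene-poor stretches, but gene density was not analysed here and its relation to the gained share was not tested. The lowest gained shares were on chromosome 22, with 6 of 544 regions (1.10%), chromosome 21 with 1.55% and chromosome 16 with 2.20%. Lost regions made up 5.85% of the regions on chromosome 20, 5.33% on chromosome 22 and 5.16% on chromosome 2, against 3.77% on all together, and 2.14% or less on chromosomes 21, X and 19. Gained regions outnumbered lost ones on 12 chromosomes, lost outnumbered gained on 9, and 2 had equal numbers. The low gained share of chromosome 22 was 0.54% when lists were ranked by fold, and the high share of chromosome 13 was 8.24%. Other chromosomes moved under that ranking, where the gained share of all regions was 5.19%. Chromosome 7 came to a gained share of 5.35%, below its lost share of 5.44%, and chromosome 8 rose from 5.39% to a gained share of 7.61%. Chromosome 19 came to a lost share of 5.16% and chromosome 21 to a gained share of 4.30%. These shares are a description of single sets of regions and carry no test.

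**Figure D4:**
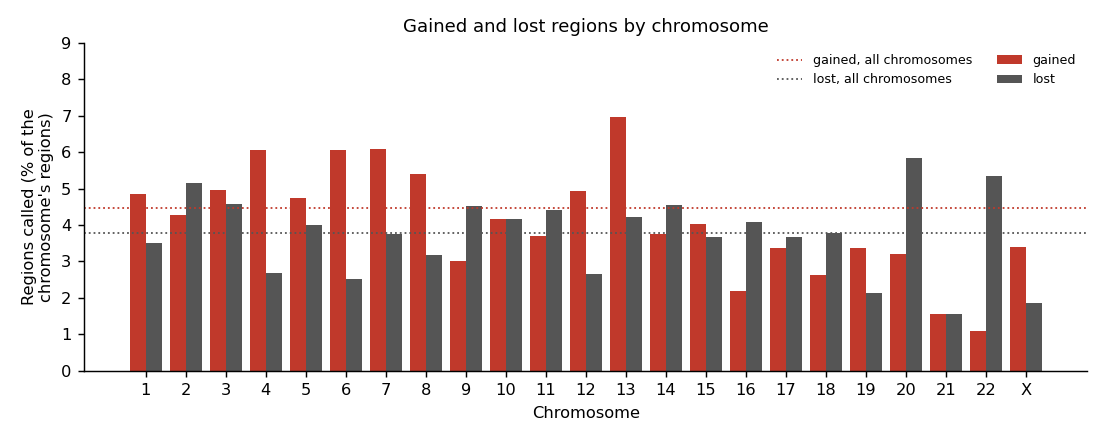
Percent of each chromosome's regions that were gained (red) or lost (grey), with dotted lines for the shares over all chromosomes. Chromosomes 13, 7, 4 and 6 have the tallest gained bars (6.95% to 6.06%), and chromosome 22 combines the lowest gained share (1.10%) with a high lost share (5.33%).

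A few stretches of 1 Mb held several regions with the same call. Of 2832 windows with any region, 78 held at least 3 gained and 82 at least 3 lost regions. The windows described next were chosen after their values were seen. On chromosome 14 between 101 and 102 Mb all 4 regions were lost, and 3 of them had no peak in any full shAhR-2 list. The fold in pLKO was 9.92, 6.17 and 8.18 at chr14:101230908-101231435, and 7.61, 5.29 and 7.24 at chr14:101237062-101237751. At chr14:101249933-101250877 it was 6.50, 5.70 and 6.99, with weaker peaks of 3.83 and 3.55 in shAhR-2 replicates 1 and 3. At chr14:101593322-101593892 it was 7.0, 4.05 and 9.0. In BE2C the second of these regions had a peak in all pLKO and all shAhR-2 libraries. The fourth had a peak in 2 pLKO and 0 shAhR-2 libraries of BE2C, and the first had none in either group.

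On chromosome 2 between 189 and 190 Mb, 5 of 8 regions were gained, and 4 had no pLKO peak in any full list. At chr2:189586064-189587242 the fold in shAhR-2 was 8.04, 8.57 and 12.0, and at chr2:189842973-189844495 it was 8.10, 7.54 and 8.79. Chromosome 11 between 40 and 41 Mb held 4 gained regions of 8, for example chr11:40261370-40262421 with 10.8, 7.67 and 9.77. Chromosome 10 between 54 and 55 Mb held 6 gained of 13. At chr10:54276439-54277278 the fold was 9.22, 9.73 and 12.4 in shAhR-2 and 3.97 in pLKO replicate 1, and in BE2C 3 shAhR-2 and 0 pLKO libraries had a peak. No other gained region of the 3 windows had this full pattern in BE2C. At some, such as chr2:189842973-189844495 and chr11:40261370-40262421, no BE2C pLKO or shAhR-2 library had a peak. At the rest the number was equal or higher in BE2C shAhR-2. Each of these 3 windows held 2 regions shared by all 6 libraries.

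MYCN, the oncogene amplified in both lines, lies on the short arm of chromosome 2. The window from 16 to 17 Mb of that chromosome held 203 regions, with 51 in all 6 libraries, 6 gained and 6 lost. Both shares were below those over all regions, 4.47% gained and 3.77% lost. At its shared regions the local background was 116, 149 and 121 times the genome-wide background in pLKO and 107, 99.3 and 116 times in shAhR-2. The highest shAhR-2 value thus lay just below the lowest pLKO value, at 116.1 against 116.4. In the adjoining window from 15 to 16 Mb the values were 119, 155 and 128 times in pLKO. They were 110, 103 and 121 times in shAhR-2 there, so the groups overlapped. Of the 6 gained regions between 16 and 17 Mb, 4 had no peak in any full pLKO list, against 41.5% of all gained regions. Of the 6 lost regions there, 1 had none in any full shAhR-2 list, against 10.9% of all lost regions.

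The BE2C libraries, which share no library with Kelly, showed the same regions with unequal presence. With each BE2C list at 19984 peaks, the Kelly gained regions had a peak at 26.4%, 25.8% and 27.9% in the 3 BE2C pLKO libraries and at 42.8%, 42.0% and 44.8% in the 3 BE2C shAhR-2 libraries. The Kelly lost regions had one at 48.9%, 51.2% and 51.7% in BE2C pLKO and at 38.6%, 40.5% and 40.4% in BE2C shAhR-2. The groups did not overlap in either set. Over all Kelly regions they lay at 53.0% to 53.9% and 54.7% to 55.2%, a smaller gap. With the first hairpin, BE2C libraries had peaks at 30.6%, 30.6% and 26.6% of the gained and 49.7%, 47.5% and 46.7% of the lost regions, in ranges that overlapped those of BE2C pLKO. With full BE2C lists the order at lost regions turned round, to 68.5%, 73.5% and 80.9% in BE2C pLKO and 87.7%, 88.2% and 88.2% in BE2C shAhR-2. At gained regions the full lists gave 50.2%, 53.4% and 66.2% against 86.8%, 86.6% and 88.7%, and over all regions 67.8% to 76.4% against 87.7% to 88.5%. Ranked by fold, the shares at gained regions were 25.1%, 23.2% and 29.5% in BE2C pLKO and 49.5%, 48.3% and 49.9% in BE2C shAhR-2.

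Counted by region, 453 gained regions (32.9%) had a peak in more BE2C shAhR-2 than BE2C pLKO libraries and 77 (5.59%) in fewer. Over all Kelly regions these shares were 13.6% and 11.0%. The full pattern of 3 shAhR-2 and 0 pLKO libraries was met in BE2C by 107 gained regions (7.77%), against 2.44% of all regions. Of the lost regions 293 (25.3%) had a peak in fewer BE2C shAhR-2 libraries and 114 (9.84%) in more, and 86 (7.42%) had one in 0 shAhR-2 and 3 pLKO libraries, against 1.88% of all regions. No peak in any BE2C pLKO or shAhR-2 library was found at 595 gained regions (43.2%), against 32.5% of all regions. The BE2C shAhR-2 libraries also had a higher genome-wide background, 3.4, 3.55 and 4.42 reads against 1.51, 1.5 and 1.86 in BE2C pLKO, and longer lists, 75798 to 81637 peaks against 34343 to 44397. In both lines the hairpin and the background therefore moved together and cannot be told apart.

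**Figure D5:**
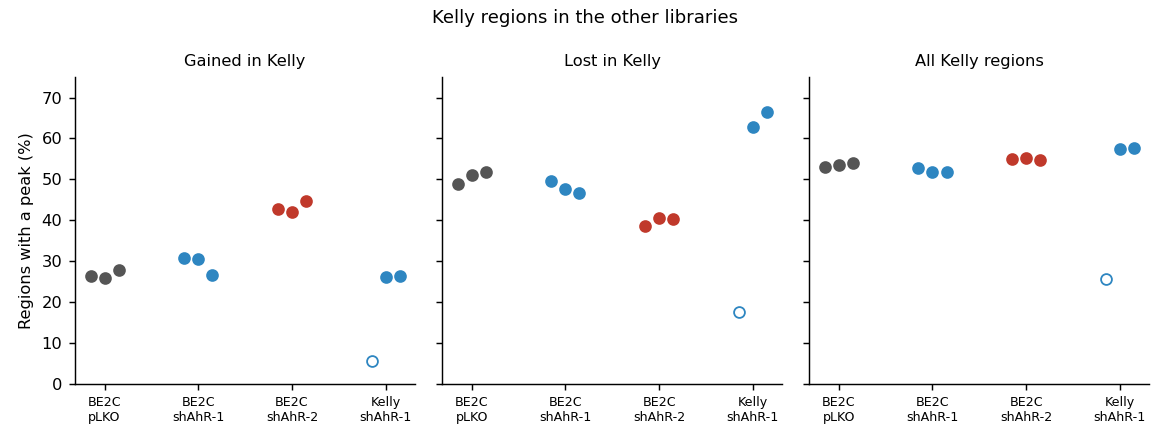
Percent of the Kelly gained, lost and all regions that had a peak in each library of the other groups, with 1 point per library and lists of 19984 peaks; the open circle is Kelly shAhR-1 replicate 1, whose list held 9204 peaks. BE2C shAhR-2 libraries lie at 42.0% to 44.8% of gained regions, above BE2C pLKO at 25.8% to 27.9%, and below BE2C pLKO at lost regions.

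The first hairpin in Kelly gave other values. Kelly shAhR-1 replicates 2 and 3 had a peak at 26.2% and 26.4% of the gained regions and at 62.8% and 66.4% of the lost regions, against 57.4% and 57.7% of all. Both replicates had a peak at 215 gained regions (15.6%) and neither at 867 (63.0%), against 49.7% and 34.6% of all regions. At lost regions both had a peak at 604 (52.1%) and neither at 265 (22.9%). Replicate 1, with a list of 9204 peaks, had a peak at 5.52% of gained and 17.4% of lost regions. The genome-wide background of these libraries was 0.601, 1.27 and 1.43 reads, below that of shAhR-2. Gained regions were defined by absence from the same pLKO libraries and lost regions by presence in them, and the difference between the hairpins was not tested.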

How the data were processed

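The members and the comparisons were chosen with earlier results of these data known. Per the submitters' processing notes, the tools were BWA 0.7.17, MACS2 2.1.0, Trimmomatic 0.33, CASAVA 1.8.2 and deepTools 3.1.3, on build hg19. Their roles and settings, and any removal of duplicates or shift of read ends for the transposase, which would move summits by a few bases, are not stated: not given in the sources used here. The authors deposited 1 peak list per library, with no pooling. Each peak carried an integer score and the fold over local background, a linear ratio, as deposited by the authors. The caller's −log10 p-value and its −log10 q-value were also deposited, and the highest q-value in the lists was 0.05. The offset of the summit from the peak's start was deposited as a number of bases. A missing peak means that none passed the caller.

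Peaks outside chromosomes 1 to 22 and X, 0.245% to 0.602% of a Kelly list, were dropped. Lists were shortened by −log10 p, peaks sharing 1 bp or more were joined into regions, and values per library were compared by two-sided exact permutation tests over 20 arrangements with Benjamini-Hochberg adjustment over 5 tests. Pileup and local background were solved from fold and p, assuming a pseudocount of 1 and a Poisson tail, for at least 99.3% of peaks. A library's smallest local background served as its genome-wide value. Regions were named as the first 10 of each call by the lowest fold in the 3 libraries with the peak. Python 3.11.15, numpy 2.4.6, pandas 2.3.3 and scipy 1.17.1 were used, and the functions were tested on simulated data. A genome or annotation of hg19 was not used here, so positions relative to genes, nearby genes, marker loci, base composition, motifs and sequences were not analysed here, although planned. Alternatives were list length, ranking, presence, region shape, q-value, fold and single replicates.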

Additional observations from a re-analysis of the deposited data

How the results depend on the processing

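How many regions were called gained or lost changed with list length and with the definition of presence. Full lists gave 12181 gained and 219 lost regions, and lists of 9992 peaks gave 532 and 531. Requiring a peak to cover at least 50% of a region gave 2232 and 598. Asking that the lacking group have no peak of any strength gave 571 and 126. Only peaks with a −log10 q of at least 5 gave 851 and 828. Leaving out each replicate in turn gave 1718 to 2928 gained and 1270 to 3093 lost regions, 0.98 to 1.38 for the log2 difference in list length and 219.5 to 341 bp for the difference in median width. The highest counts, 2928 and 3093, came without pLKO replicate 2, where the shortest list is longer. With that library left out and lists kept at 19984 peaks, an alternative added after the data were seen, 2032 regions were lost and 1576 gained. In both cases lost regions outnumbered gained ones, the reverse of the order with all 6 libraries. Ranking by fold gave 1775 gained and 1528 lost regions, which included 952 (69.1%) of the gained regions reported and 787 (67.9%) of the lost ones. Summit windows gave 1416 and 1167. The difference in median width turned to −12 bp with full lists. In 9 alternatives the difference in list length kept its direction.

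No pairing by replicate number showed in peak widths, which cannot settle whether same-numbered samples were prepared together. Width deviations of same-numbered libraries correlated at 0.0031, 0.0378 and 0.0415, and those of differently numbered ones at −0.107 to 0.109. An exact test with the replicate number as a block gave p = 0.25 for the difference in list length (1.21) and for that in median width (278 bp), the smallest p that 8 arrangements allow, and changed no call.

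The comparisons of promoter share, intergenic share and distance to genes were not run, since they need an hg19 annotation. Depth sets which weak peaks were called and was known only through the solved background. In the full lists, absence of a peak in pLKO, the group with the lower background, therefore rests on less evidence than absence in shAhR-2. In the shortened lists the cut was stricter in shAhR-2. There, absence in shAhR-2 often meant a lower rank, since 786 lost regions (67.8%) had a weaker peak in all 3 full shAhR-2 lists. Read counts per region were not used here.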
